A study of Capra hircus with 12 samples.

Results

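The red cell miRNAs miR-144 and miR-451 were examined in small RNA libraries of goat longissimus dorsi, the long muscle of the back. Members were all rows of the table of counts named for miR-144, miR-451 or miR-486, with any arm of the hairpin. The rule found 4 of the 500 rows, chi-miR-451-5p, chi-miR-451-3p, chi-miR-144-5p and chi-miR-144-3p, and miR-486 was not analysed here. The 12 libraries come from rams that were fasted before slaughter, with 3 Longlin and 3 Nubian animals at each of the age labels 1-Month and 10-Month. No animal received a treatment, and the muscle was rinsed in PBS after collection, so that blood left within vessels could remain. The comparisons were the age labels within each breed, the age labels and the breeds over all 12 libraries, and the difference of the age effects between the breeds.

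A miRNA is cut from a hairpin precursor, and its 5p and 3p arms are the strands from either side of the loop. In vertebrates miR-144 and miR-451 are made from 1 shared primary transcript that the factor GATA1 switches on in developing red blood cells. Most hairpins are then cut by Dicer. The miR-451 hairpin is too short for Dicer and is cut by Argonaute 2 within its 3p side, so that little 3p arm is made. Mature mammalian red cells keep miR-451 at a high level, and its level in another tissue or in plasma is commonly read as a sign of blood or haemolysis. miR-144 is known for its part in globin synthesis and the response of red cells to oxidative stress.

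In the RefSeq annotation of the goat assembly ARS1.2, both precursors were on chromosome 19. MIR451 spanned bases 20067872 to 20067942 and MIR144 spanned bases 20068021 to 20068116, with 78 bases between them. No annotated gene overlapped either precursor, which places them in neither an exon nor an intron. The nearest genes were ERAL1, which ended 141 bases before MIR451, and FLOT2, which began 13313 bases after MIR144.

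The age labels need a caution before any direction is read. The deposited comparison tables hold a mean for each age, and the mean named for 1 age equalled the mean of the libraries with the other age label. This held within 0.1% for 500 of 500 miRNAs, the 4 members included, in each breed. The sources used here do not show which naming is right, so libraries are named by their label, and fold changes are those labelled 10-Month over those labelled 1-Month. By the names in the comparison tables, every direction with age given here would be the opposite. Library totals ranged from 7002417 to 11350546 miRNA counts, with a median of 9184753. Of the 8 rows of the muscle miRNAs miR-1, miR-133a, miR-133b, miR-206, miR-208b and miR-499, 7 had a count in every library. So did all 8 rows of the fibroblast and vessel wall miRNAs miR-143, miR-145, miR-199a and miR-214, so this does not tell the tissue.

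chi-miR-451-5p, the strand that Argonaute 2 retains, was abundant in every library. It held 43091 of the members' counts, or 98.9%, and ranked between 44th and 71st of the 500 rows. Levels are CPM, the count relative to the library's total after TMM scaling over the 12 libraries, which needs no length term because each miRNA gives 1 read. The Longlin libraries labelled 1-Month had 343, 251 and 404 CPM, and those labelled 10-Month had 288, 413 and 305 CPM. The Nubian libraries labelled 1-Month had 434, 461 and 462 CPM, and those labelled 10-Month had 320, 492 and 330 CPM. The groups of each breed overlapped, and the lowest and the highest library were a Longlin 1-Month and a Nubian 10-Month library.

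The group means of chi-miR-451-5p were 333 ± 77.4 and 335 ± 67.7 CPM (SD, n = 3) in Longlin goats labelled 1-Month and 10-Month. They were 452 ± 15.8 and 381 ± 96.6 CPM (SD, n = 3) in Nubian goats. In order, the means ran from Longlin 1-Month through Longlin 10-Month and Nubian 10-Month to Nubian 1-Month. The first 3 lay within 1 SD of each other, and Nubian 10-Month and Nubian 1-Month also overlapped in range. All 3 Nubian 1-Month libraries exceeded all 6 Longlin libraries on CPM. This grouping was not tested, and the share of all miRNAs separated in this way was not computed. Over the 12 libraries the highest was 1.96-fold the lowest, with a coefficient of variation of 21.0%. Among the 331 miRNAs that reached 10 counts in 3 or more libraries, 20 varied less, and the median coefficient was 52.8%.

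The scaling mattered for the order of single libraries of chi-miR-451-5p. On the deposited TPM, which divide a count by the library's total, the group means were 310 for Longlin 1-Month and 433 for Longlin 10-Month. Those of the Nubian groups were 419 for 1-Month and 348 for 10-Month. On TPM all 3 Longlin 10-Month libraries lay above the 3 labelled 1-Month, at 390 to 485 against 219 to 374. On CPM they overlapped. The share of all miRNAs separated on TPM was not computed. With scaling by total counts, the median log2 fold change of all miRNAs tested in Longlin goats was 0.79. That of chi-miR-451-5p was 0.48, below this median. The Nubian 1-Month libraries did not all exceed the Longlin ones on TPM, where replicate 3 was at 317.

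chi-miR-451-3p, the strand lost in Argonaute 2 processing, was at the limit of detection. The counts were 2, 1 and 0 in the Longlin libraries labelled 1-Month and 1, 0 and 1 in those labelled 10-Month. They were 1, 0 and 0 in the Nubian libraries labelled 1-Month and 0 in all 3 labelled 10-Month. Thus 6 counts stood against 43091 of the 5p arm, and 7 libraries had none. A count of 0 still allows up to 3 counts, or 0.264 to 0.428 TPM at these totals. Against 3 counts of the 3p arm per library, the 5p arm was at least 596-fold higher in the lowest library and at least 1769-fold higher in the highest. No comparison of groups was made for the 3p arm.

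**Figure D1:**
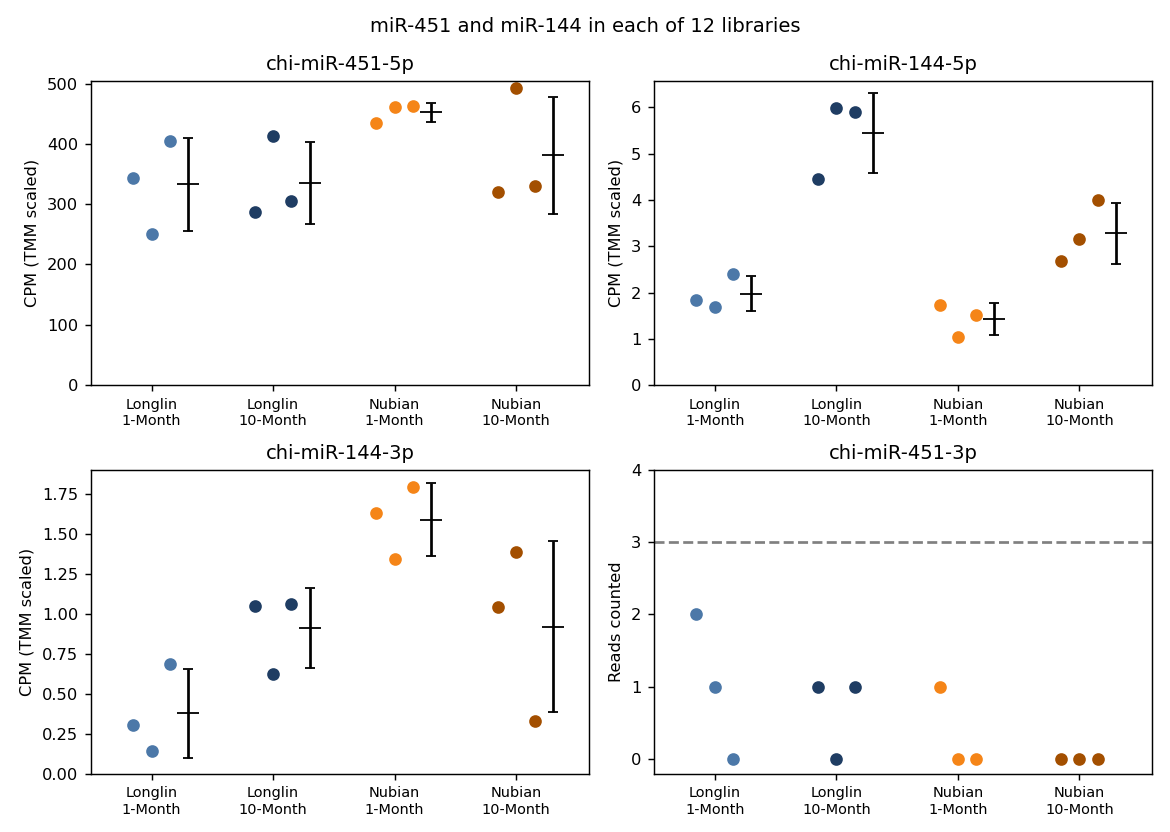
Levels of the 4 members in each of 12 libraries, as TMM-scaled CPM, or as reads counted for chi-miR-451-3p. Points are libraries, bars are group means with 1 SD (n = 3) and the dashed line marks 3 counts. The 6 libraries labelled 10-Month lie between 2.69 and 5.99 CPM for chi-miR-144-5p, above the 6 labelled 1-Month at 1.04 to 2.40 CPM. The share of all miRNAs separated in this way was not computed. The groups of chi-miR-451-5p overlap within each breed.

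chi-miR-144-5p was far rarer, with 378 counts over the 12 libraries and 10 to 77 per library. The Longlin libraries labelled 1-Month had 1.84, 1.68 and 2.40 CPM, and those labelled 10-Month had 4.45, 5.99 and 5.90 CPM. The Nubian libraries labelled 1-Month had 1.73, 1.04 and 1.52 CPM, and those labelled 10-Month had 2.69, 3.15 and 4.0 CPM. All 6 libraries labelled 10-Month were above all 6 labelled 1-Month, in both breeds together. The groups also did not overlap on TPM in either breed. Separation within breeds was common, since the age labels were separated on CPM in 65.6% of 314 miRNAs in Longlin and in 41.4% of 295 miRNAs in Nubian goats. Shares were not computed on TPM, nor for all 6 libraries of 1 label above all 6 of the other.

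chi-miR-144-3p had 114 counts in all and 1 to 17 per library, and 9 libraries had more than 3. The Longlin libraries labelled 1-Month had 0.307, 0.140 and 0.686 CPM, and those labelled 10-Month had 1.05, 0.622 and 1.06 CPM. The Nubian libraries labelled 1-Month had 1.63, 1.35 and 1.80 CPM, and those labelled 10-Month had 1.05, 1.39 and 0.333 CPM. The age labels overlapped in both breeds on CPM, and on TPM the Longlin 10-Month libraries were all above those labelled 1-Month. How many of all miRNAs separated in this way on TPM was not computed. Single libraries rest on so few reads that their values are wide. The Longlin 1-Month library with 1 count has a 95% Wilson interval of 0.0216 to 0.695 TPM.

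The age labels were tested by edgeR's quasi-likelihood test with Benjamini-Hochberg adjustment over all miRNAs of a fit, and a miRNA was called at an absolute log2 fold change over 1 and an adjusted p under 0.05. In Longlin goats chi-miR-144-5p rose from 1.98 ± 0.378 to 5.45 ± 0.860 CPM (SD, n = 3), with a log2 fold change of 1.16 ± 0.35 (SE, edgeR adjusted p = 0.016). It was 1 of 159 called of 314 tested, and this 50.6% is the background for it. chi-miR-451-5p was not called there, at -0.30 ± 0.23 (edgeR adjusted p = 0.28). The sign of this value depends on scaling, since the fit scales the 6 Longlin libraries alone, whereas the means over 12 libraries are nearly equal. chi-miR-144-3p had too few counts in Longlin goats to be tested.

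In Nubian goats no member was called, beside 35 of 295 miRNAs, or 11.9%. chi-miR-144-5p had means of 1.43 ± 0.356 and 3.28 ± 0.664 CPM (SD, n = 3) and a log2 fold change of 1.08 ± 0.39 (SE), with an unadjusted p of 0.028 and an edgeR adjusted p of 0.10. It was the 1 member under an unadjusted p of 0.05, and DESeq2 called 0 members. chi-miR-451-5p had a log2 fold change of -0.35 ± 0.28 (edgeR adjusted p = 0.39) and chi-miR-144-3p one of -0.82 ± 0.56 (edgeR adjusted p = 0.32). The same 3 libraries of a label carry all members, so their values within a group are not independent. The value of chi-miR-144-5p passed the threshold when all 12 libraries shared 1 fit, at 1.18 (edgeR adjusted p = 0.025).

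In the fit of age label and breed to the 12 libraries together, chi-miR-144-5p rose with the 10-Month label by a log2 fold change of 1.33 ± 0.24 (SE, edgeR adjusted p = 0.00058). It was the 1 member called, where 137 of 331 miRNAs (41.4%) were. chi-miR-451-5p stood at -0.12 ± 0.18 (edgeR adjusted p = 0.60) and chi-miR-144-3p at 0.14 ± 0.47 (edgeR adjusted p = 0.82). The median over all miRNAs tested was 0.13. The 2 mature strands with most counts from the shared transcript thus had age values that differed by 1.45 on the log2 scale. In bulk muscle, fewer cells that hold a miRNA and less of it per cell cannot be told apart.

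**Figure D2:**
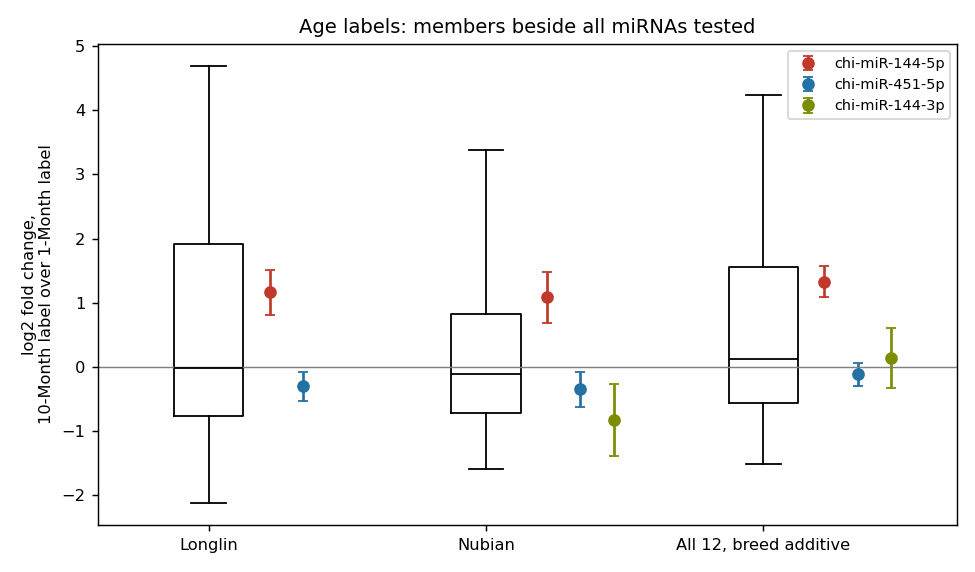
Log2 fold changes of the members between age labels (10-Month over 1-Month), with bars of 1 SE, beside all miRNAs tested in Longlin goats (314), Nubian goats (295) and all 12 libraries (331). Boxes span the quartiles with the median as a line, and whiskers reach the 5th and 95th percentiles. chi-miR-144-5p lies at 1.16, 1.08 and 1.33, chi-miR-451-5p at -0.30, -0.35 and -0.12, all 6 values inside the whiskers.

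Between the breeds no member was called, beside 2 of 331 miRNAs (0.604%) by edgeR, and DESeq2 called 0 members too. The log2 fold change of Nubian over Longlin was 0.31 ± 0.18 for chi-miR-451-5p (SE, edgeR adjusted p = 0.35) and 0.95 ± 0.48 for chi-miR-144-3p (edgeR adjusted p = 0.32). It was -0.61 ± 0.24 for chi-miR-144-5p (edgeR adjusted p = 0.23), the 1 member with an unadjusted p under 0.05, at 0.025. The 2 arms of miR-144 thus had breed values of opposite sign, neither of which passed the test.

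The age effect was not shown to differ between the breeds for any member. Of the 331 miRNAs, 0 passed the edgeR interaction test (0%), 37 had an unadjusted p under 0.05, and DESeq2 called 3, none of them a member. chi-miR-144-3p had the largest member value, a log2 difference of -2.04 ± 0.81 (SE) with an unadjusted p of 0.027 and an edgeR adjusted p of 0.38. Its age direction was upward in Longlin and downward in Nubian means. chi-miR-144-5p had -0.28 ± 0.48 (edgeR adjusted p = 0.74) and chi-miR-451-5p had -0.26 ± 0.36 (edgeR adjusted p = 0.72).

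Ratios of members within a library need no scaling between libraries and were tested on their own. For each chi-miR-144-5p read there were 181, 143.2 and 163 chi-miR-451-5p reads in the Longlin libraries labelled 1-Month and 64.2, 68.5 and 51.4 in those labelled 10-Month. The Nubian libraries had 244, 423 and 291 for the 1-Month label and 117, 153 and 80.8 for the 10-Month label. The age labels did not overlap in either breed, nor did the breeds within either age label. By level alone, the age labels were separated in 65.6% of 314 miRNAs in Longlin and in 41.4% of 295 in Nubian goats. The shares for ratios of other miRNAs to chi-miR-451-5p, and for separation of the breeds, were not computed.

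The chi-miR-144-5p to chi-miR-451-5p ratio was 1.43 higher on the log2 scale in libraries labelled 10-Month, or 2.7-fold. The difference was 1.41 in Longlin and 1.46 in Nubian goats. A two-sided exact permutation test with age labels permuted within breeds gave p = 0.005, the smallest that 400 arrangements allow, and 0.015 after adjustment over 6 ratio tests. Between breeds the ratio was -0.92 in Nubian against Longlin libraries, 1.89-fold lower, with an exact permutation p of 0.005 and an adjusted p of 0.015. Within 1 breed, 3 against 3 libraries cannot give a p below 0.1. This ratio was the member measure in which both contrasts passed.

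**Figure D3:**
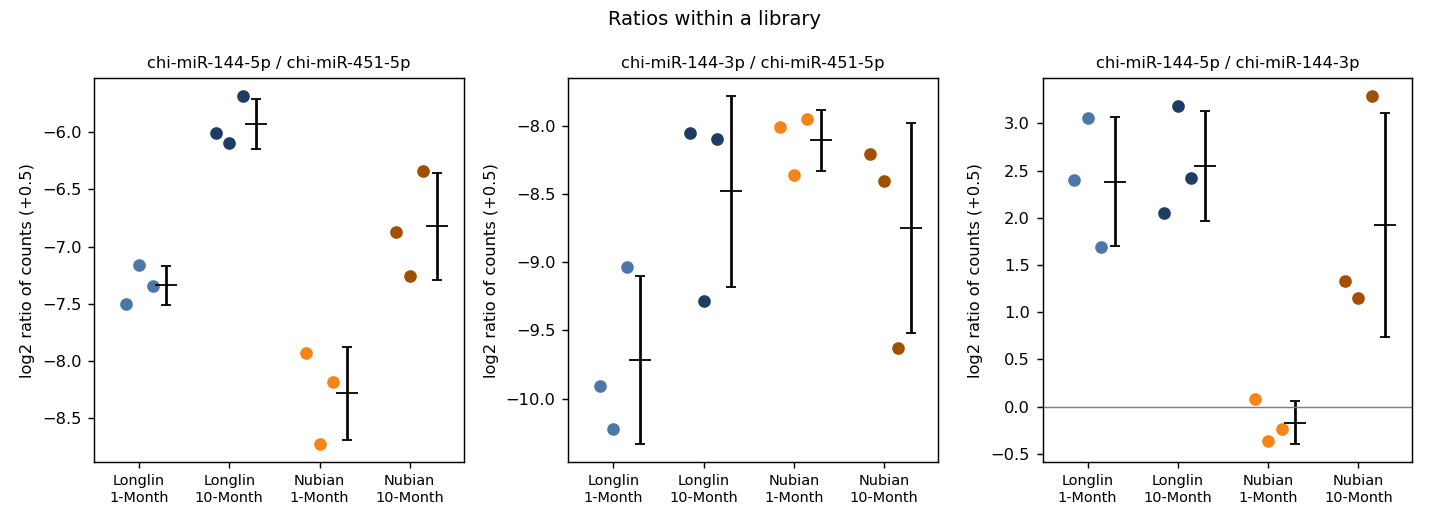
Log2 ratios of counts within each of 12 libraries (0.5 counts added to each) for chi-miR-144-5p over chi-miR-451-5p, chi-miR-144-3p over chi-miR-451-5p and the 2 arms of miR-144. Points are libraries and bars are group means with 1 SD (n = 3). In the left panel the 10-Month label lies 1.41 higher in Longlin and 1.46 higher in Nubian goats, with no overlap, and in the right panel the 3 Nubian 1-Month libraries lie lowest, between -0.36 and 0.08.

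The arms of miR-144 were used in unequal shares. The 3p arm made up 8 of 52 miR-144 counts, or 15.4% (exact 95% interval 6.88% to 28.1%), in Longlin libraries labelled 1-Month, and 36 of 246, or 14.6% (10.5% to 19.7%), in those labelled 10-Month. It made up 43 of 82, or 52.4% (41.1% to 63.6%), in Nubian libraries labelled 1-Month and 27 of 112, or 24.1% (16.5% to 33.1%), in those labelled 10-Month. The intervals pool 3 libraries and cover counting error only. By library the Nubian 1-Month shares were 48.6%, 56.5% and 54.2%, above each of the other 9 libraries, which ran from 7.69% to 30.6%.

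The tests of the arm ratio did not pass after adjustment with 0.5 counts added, but both passed with 1 count added (adjusted p = 0.0375 between age labels and 0.03 between breeds). The 5p to 3p ratio of miR-144 was 1.13 higher on the log2 scale in libraries labelled 10-Month, with an exact permutation p of 0.035 and an adjusted p of 0.053. The difference was 0.17 in Longlin and 2.10 in Nubian goats. Between breeds it was -1.59, with an exact permutation p of 0.025 and an adjusted p of 0.05, which is not under the threshold. The breed difference was -2.55 for the 1-Month label and -0.63 for the 10-Month label. Within Nubian goats 1 library labelled 10-Month, with 2 reads of the 3p arm, had a log2 ratio of 3.29. Without it the breed difference was -1.93 with an adjusted p under 0.05, while the age difference was smaller, at 0.79. Both contrasts passed without Longlin 10-Month replicate 1, at 1.26 and -1.72, and the age contrast also without Longlin 1-Month replicate 2, at 1.30. Over the 12 omissions of 1 library, the adjusted exact permutation p ran from 0.03 to 0.15 between age labels and from 0.01 to 0.08 between breeds.

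The chi-miR-144-3p to chi-miR-451-5p ratio differed in neither contrast beyond the spread. The age difference was 0.30 on the log2 scale (exact permutation p = 0.525), made of 1.24 in Longlin and -0.64 in Nubian goats. The breed difference was 0.67 (exact permutation p = 0.17, adjusted p = 0.20).

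Other blood cell miRNAs were set beside the members to see whether they moved with chi-miR-451-5p. The leukocyte list was miR-223, a miRNA of granulocytes and monocytes, miR-142, miR-150 of mature lymphocytes, miR-155 and miR-146a, which gave 5 rows, of which 4 were tested. In Longlin goats 3 were lower with the 10-Month label and 0 higher, where 61 of all 314 miRNAs were lower and 98 higher. chi-miR-223-3p fell by 3.80 on the log2 scale (edgeR adjusted p = 3.7e-05), chi-miR-146a by 2.26 (edgeR adjusted p = 0.0035) and chi-miR-150 by 1.89 (edgeR adjusted p = 5.3e-05). The median of the list was -2.07, beside -0.01 over all 314. The 3 were also called under each other scaling tried. In Nubian goats edgeR called 0 of 4, with a median of -0.71, DESeq2 called 0, and 1 (chi-miR-150, at -1.08) was past the fold limit at an unadjusted p under 0.05.

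Summed over its rows, the leukocyte list had 357 to 468 CPM in Longlin libraries labelled 1-Month and 142.8 to 147 CPM in those labelled 10-Month. The Nubian sums were 277 to 385 CPM and 130 to 285 CPM. The Longlin groups did not overlap and the Nubian groups did. Among single miRNAs on CPM, the age labels were separated in 65.6% of 314 in Longlin and in 41.4% of 295 in Nubian goats. No such share was computed for sums or on TPM. On TPM the Longlin groups were also apart, at 317 to 409 against 170 to 217. chi-miR-451-5p did not show this fall in Longlin goats, where its means were 333 and 335 CPM. What the leukocyte miRNAs contribute to any member's value was not tested.

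Red cells also hold miRNAs that many other cells make, and these were a second list of 22 rows from miR-15b, miR-16, miR-25, miR-92a, miR-93, miR-96, miR-106b, miR-107, miR-182, miR-183, miR-185, miR-191, miR-363 and miR-484. In Longlin goats 4 of 15 tested were higher with the 10-Month label and 3 were lower, beside 98 higher and 61 lower of all 314 miRNAs (50.6% called), so the count says nothing particular about the list. The higher ones were chi-miR-182, chi-miR-183 and chi-miR-96, which form 1 cluster known best from sensory organs, and chi-miR-363-3p. Their log2 fold changes were 4.60, 3.58, 2.96 and 1.85, all above that of chi-miR-144-5p. The lower ones were chi-miR-16a-5p, chi-miR-16b-5p and chi-miR-191-3p, at -1.49, -1.0 and -1.23. By total counts 5 were higher and 0 lower, so the lower calls depend on the scaling. In Nubian goats edgeR called 0 of 16, with 1 (chi-miR-191-3p) past the fold limit at an unadjusted p under 0.05. DESeq2, which called more of all miRNAs there than edgeR, called 2, chi-miR-182 and chi-miR-183, both higher.

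The median of this red cell list was -0.07 in Longlin and -0.20 in Nubian goats, close to the medians of -0.01 and -0.11 over all miRNAs. Its summed level was 1514 to 1665 CPM in Longlin 1-Month, 1267 to 1438 in Longlin 10-Month, 1601 to 2046 in Nubian 1-Month and 1407 to 1884 in Nubian 10-Month libraries. In Longlin goats the sum was lower with the 10-Month label on CPM, but on TPM the direction turned, at 1325 to 1744 for 1-Month and 1617 to 1915 for 10-Month. The Longlin means of chi-miR-451-5p were nearly equal on CPM, and the 10-Month mean was higher on TPM.

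Vessel content was read from miR-126, the miRNA of endothelial cells, and 0 of its 2 arms were called in either breed. chi-miR-126-3p had log2 fold changes of -0.73 (edgeR adjusted p = 0.020), short of the fold limit, in Longlin and -0.74 (edgeR adjusted p = 0.24) in Nubian goats. Of 8 rows of the fibroblast and vessel wall miRNAs miR-143, miR-145, miR-199a and miR-214, 1 was higher and 1 lower in Longlin, and 2 higher and 1 lower in Nubian goats. By total counts these were 4 and 0 in Longlin, and 0 and 0 in Nubian goats. Of 7 muscle rows tested, 0 were higher and 3 lower in Longlin, and 2 were lower in Nubian goats. chi-miR-1 was lower in Longlin goats only, at -1.33 (edgeR adjusted p = 0.0028), and by total counts it was not called. The shares called over all miRNAs, against which both lists are read, were 50.6% in Longlin and 11.9% in Nubian goats. The 2 lower in both breeds were chi-miR-208b and chi-miR-499-5p, miRNAs made from slow myosin genes, and by total counts chi-miR-499-5p was not called in Nubian goats. There the calls of both lists were kept without Nubian 1-Month replicate 2, and 0 rows of either list were called without any 1 of the other 5 libraries.

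**Figure D4:**
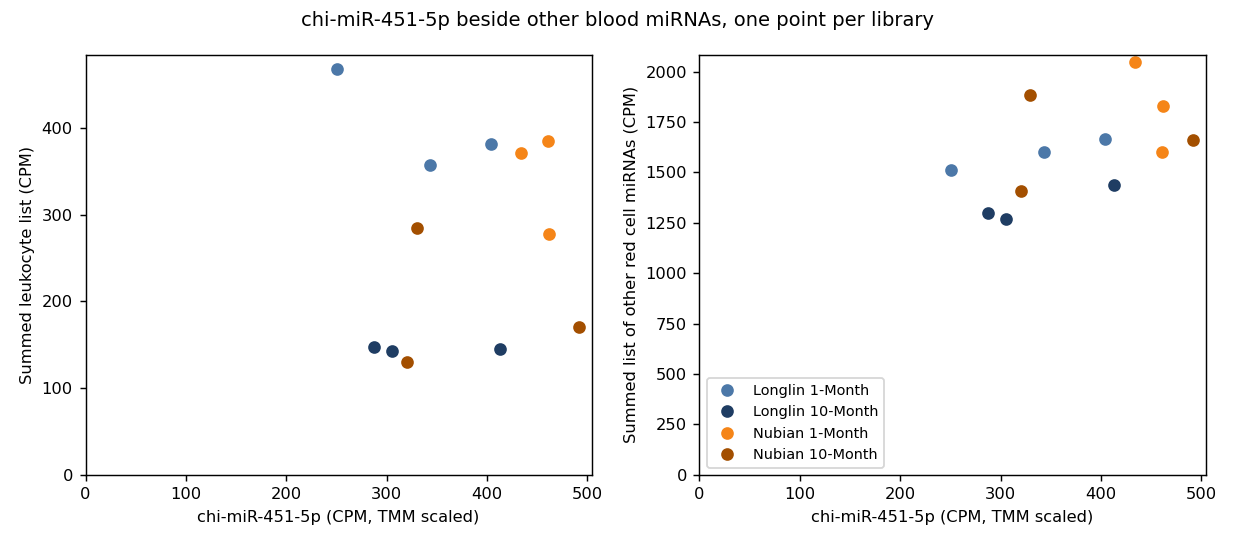
chi-miR-451-5p (horizontal, TMM-scaled CPM) against the summed leukocyte list (left) and the summed list of other red cell miRNAs (right), 1 point per library, coloured by breed and age label. The Longlin 10-Month libraries lie at 142.8 to 147 CPM on the left axis over a chi-miR-451-5p range of 288 to 413 CPM.

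Across libraries, no relation of chi-miR-451-5p on CPM with the measures set beside it passed a test. Relations were computed with chi-miR-144-5p, the leukocyte sum, chi-miR-126-3p and chi-miR-1 over all 12 libraries and within each breed and each age label, 20 in all. Their adjusted permutation p-values were at least 0.942 for Pearson's r and 1.0 for Spearman's rho. Since chi-miR-144-5p separates by age label, its relation is given within labels. In the 6 libraries labelled 1-Month, r was -0.29 (exact permutation p = 0.51) and rho -0.54 (exact permutation p = 0.30), with r = -0.88 without the 2 libraries farthest from the median. In the 6 labelled 10-Month, r was -0.16 (exact permutation p = 0.80) and rho -0.14 (exact permutation p = 0.80), with r = -0.45 without the 2 farthest.

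With the leukocyte sum, r over 12 libraries was 0.09 (permutation p = 0.79) and rho 0.12 (permutation p = 0.72), and r was 0.61 without the 2 libraries farthest from the median. Within breeds it was -0.14 in Longlin (exact permutation p = 0.78) and 0.37 in Nubian goats (exact permutation p = 0.47), and without the 2 farthest libraries both signs reversed, to 0.90 and -0.86. Within age labels it was -0.71 for 1-Month (exact permutation p = 0.18) and 0.07 for 10-Month (exact permutation p = 0.92). The sign thus changed between subsets, and 6 libraries give little precision.

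The miRNAs whose pattern over the 12 libraries was most like that of chi-miR-451-5p were found by Spearman's rho on CPM among 330 others. Leaving members aside, they were chi-miR-206 (rho = 0.69), chi-miR-26b-3p (0.66), chi-miR-1296 (0.65), chi-miR-2483-5p (0.65) and chi-miR-29b-3p (0.64). chi-miR-206, a muscle miRNA, ranged from 42019 to 125426 CPM. Far rarer were chi-miR-26b-3p (0.097 to 2.07 CPM), chi-miR-1296 (1.40 to 4.80), chi-miR-2483-5p (0.333 to 2.62) and chi-miR-29b-3p (0.580 to 20.3). The member chi-miR-144-3p shared 3rd place at 0.65, and chi-miR-144-5p was 277th at -0.32. The 2 arms of 1 hairpin thus stood far apart in this order, with few reads behind the 3p arm. The order holds for CPM only, and none is given on TPM. The libraries themselves changed places for chi-miR-451-5p with the scaling. Counted from the lowest, Longlin 10-Month replicate 1 was 2nd on CPM and 10th on TPM, and Nubian 1-Month replicate 3 was 11th and 3rd.

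To place the gap between miR-451 and miR-144, precursors under 1000 bases apart were listed, a description chosen after the member values were seen. There were 48 such pairs with both miRNAs tested, each represented by its most abundant strand. The absolute difference of their age log2 fold changes ranged from 0.026 to 3.83, with a median of 0.61. The pair of miR-451 and miR-144 differed by 1.45 and ranked 9th. Of the pairs ranked above it, all but that of MIR181D and MIR181C lay on chromosome 21, and MIR410 stood in more than 1 of them. The annotation table gives no strand, so not every pair need share a transcript.

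**Figure D5:**
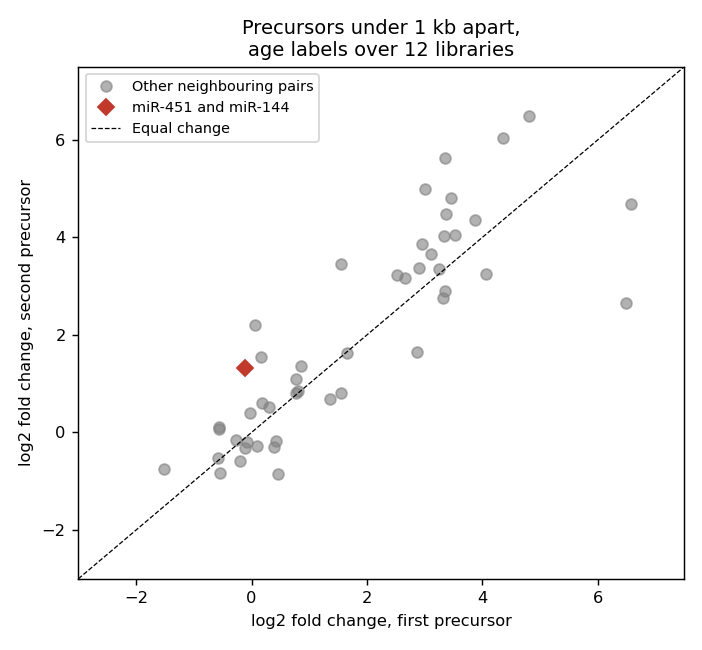
Log2 fold changes between age labels (10-Month over 1-Month, all 12 libraries) for 48 pairs of precursors under 1000 bases apart, the precursor with the lower coordinate on the horizontal axis. The dashed line marks equal change. The pair of miR-451 and miR-144 lies at -0.12 and 1.33, away from the line by more than the median pair.

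The deposited predicted targets hold 5742 pairs of a miRNA and a transcript for 386 miRNAs. Of the members, chi-miR-451-5p and chi-miR-144-3p had 1 pair each, and the transcript was its own precursor, MIR451 and MIR144. Such pairs were 52 of the 5742, and for 12 miRNAs, both members among them, the own precursor was the only target listed. The table therefore names no mRNA for any member.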

How the data were processed

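Small RNA libraries of 12 goats were used. The authors mapped clean reads to ARS1.2, filtered out other small RNA classes by Rfam and assigned the rest to goat miRNAs of miRBase; the submitters' processing notes list Bowtie 0.12.2. The deposited counts are raw reads per miRNA, and the deposited TPM divide them by the library's miRNA total. The deposited comparison tables hold, as signal, means of counts normalised by the authors with DESeq2, used only to check age names; their fold changes and p-values were not used, nor were GO tables.

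Groups followed breed and age in the labels. edgeR 4.0.16 (R 4.3.3) was fitted to counts with TMM scaling and at least 10 counts in at least 3 libraries, and DESeq2 1.42.0 was an alternative. SE is the absolute log2 fold change over the root of F. Log2 ratios used a pseudocount of 0.5, and correlations used log2 CPM with 100000 resamples over 12 libraries and every arrangement over 6. Python 3.11.15 with scipy 1.17.1 computed these. The edgeR and DESeq2 age fits within each breed were tested on simulated counts, with larger changes than any member showed. The ratio, correlation and target steps were not tested in this way. Library totals set the precision, intervals are 95% Wilson or exact binomial ones, 3 counts were the floor, and both cover counting error only. miRNAs named are the members, the 5 most like chi-miR-451-5p and those of the marker lists set against a member. Members and lists were chosen with earlier results of these data known. Ratios with miR-486, and of the miR-451 arms, were not made. The extract protocol in the labels speaks of adipose tissue, while tissue label and methods give longissimus dorsi.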

Additional observations from a re-analysis of the deposited data

How the results depend on the processing

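chi-miR-144-5p in Longlin goats stayed called in all 16 alternatives, with log2 fold changes of 1.12 to 1.94 and adjusted p of 0.0014 to 0.049, and over all 12 libraries in all 21. In Nubian goats 1 member was called with an unadjusted p and 1 with all 12 libraries in 1 fit (chi-miR-144-5p), and for the interaction 1 with an unadjusted p (chi-miR-144-3p). Leaving out a library kept 1 member called in Longlin goats and over all 12, and 0 in Nubian goats, between breeds and in the interaction. DESeq2 called 77 miRNAs in Nubian goats where edgeR called 35.

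Scaling by total counts moved the median of all miRNAs in Longlin goats from -0.01 to 0.79. The age value of chi-miR-451-5p in Longlin goats was then 0.48, below that median, 0.011 with all 12 libraries in 1 fit, and -0.42 to 0.028 without single libraries (0.028 without Longlin 10-Month replicate 1). Over all 12 it was 0.11 with total counts and 0.0042 with at least 10 counts in every library. chi-miR-144-3p over all 12 was -0.030 without a filter and -0.23 to 0.25 without single libraries. The interaction of chi-miR-144-5p was 0.054 by totals without the 10 most abundant miRNAs, 0.023 without a filter and -0.42 to 0.17 without single libraries, and that of chi-miR-451-5p 0.084, 0.044 and -0.37 to 0.16. None of these reversals passed a test, and the cause was not tested.

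The 5p to 3p ratio of miR-144 gave 1.16 (adjusted p = 0.0375) between age labels and -1.51 (adjusted p = 0.03) between breeds with a pseudocount of 1. Without single libraries it ranged from 0.791 to 1.33 and from -1.93 to -1.40. The chi-miR-144-5p to chi-miR-451-5p ratio ranged from 1.31 to 1.54 and from -1.04 to -0.81, and that of chi-miR-144-3p from 0.16 to 0.52 and from 0.47 to 0.89.

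Of the other red cell miRNAs, 2 to 4 were called higher and 1 to 3 lower in Longlin goats without single libraries, with 2 higher without any 1 of the 3 labelled 10-Month, and 1 of each with at least 10 counts in every library. On TPM, r of chi-miR-451-5p over 12 libraries was 0.34 with chi-miR-144-5p, -0.14 with the leukocyte sum and -0.60 with chi-miR-1. On CPM these were -0.29, 0.09 and 0.32, so each sign depended on the scaling. The TPM values lie outside the 20 relations adjusted together. Without single libraries r was -0.039 to 0.43 with the leukocyte sum and -0.30 to 0.25 with chi-miR-126-3p.

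Deviations of same-numbered libraries correlated by 0.020, 0.133 and 0.167 in Longlin and -0.028, 0.183 and 0.051 in Nubian goats, and 7 of 12 libraries correlated best with their own number. Since 3 of these 6 pairs were not over 0.1 and the labels name no shared litter or batch, the numbers were not taken to pair the samples. With a replicate block, calls went from 159 to 160 in Longlin and 35 to 44 in Nubian goats, and chi-miR-144-5p in Longlin goats was 1.15 (adjusted p = 0.035). Sign flips within pairs gave the same ratio differences of 1.43 and -0.92 with an adjusted p of 0.094, the smallest that 64 flips allow for them. Member levels with few counts limit every value of miR-144-3p.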
